A study of Rattus norvegicus with 9 samples.

Results

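The fibroblast growth factor (FGF) ligands and receptors examined here were 10 genes, the ligands Fgf1, Fgf2, Fgf7, Fgf9, Fgf10, Fgf18, and Fgf21 and the receptors Fgfr1, Fgfr2, and Fgfr3. They were chosen by name, with earlier results of these data known, and all 10 were found among the 35362 genes of the table. RNA was sequenced from adipose-derived mesenchymal stem cells of 6-week-old male Sprague Dawley rats, named SASCs when grown from subcutaneous fat, PASCs when grown from perirenal fat, and EASCs when grown from epididymal fat. The subcutaneous fat came from the groin, and in every group the cells were those that attached to the dish after collagenase digestion. The rats were starved before isolation, and the cells were grown in high glucose medium with fetal bovine serum. No treatment of the cells is described, and they were collected at passage 3. Each group had 3 samples, and the text does not say whether these came from separate rats, so the p-values measure only the spread between these samples, which may be technical.

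FGF ligands are secreted signals that bind receptor tyrosine kinases together with heparan sulfate of the cell surface, and the receptors then activate the ERK, phosphoinositide 3-kinase, and phospholipase C cascades. Fgf7 and Fgf10 are made by mesenchymal cells and act mainly through the b splice form of Fgfr2, Fgf1 and Fgf2 lack a signal peptide and bind most receptors, and Fgf9 and Fgf18 bind Fgfr3 strongly. In fat, Fgf10 is known for its role in preadipocyte differentiation, Fgf1 for the remodeling of the depot during feeding, and Fgf2 as a mitogen of cultured stem cells.

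Total counts per sample were 17591916 to 30299032. Levels are given in CPM, counts scaled to the size of each library after TMM normalization, where 3 counts correspond to 0.104 to 0.159 CPM. Ribosomal RNA took 10.4% to 15.5% of the counts in SASCs and 15.9% to 40.3% in the other 6 samples, and with these genes removed the numbers of members called in the comparisons below stayed at 6, 5, and 3. The cells were checked against 8 markers of mesenchymal stem cells, all of which were above 3 counts in every group. Their summed level ranged over 14465 to 15337 CPM for SASCs, 20910 to 25402 for PASCs, and 24405 to 26937 for EASCs. Most of this sum was Col1a1, at 10697, 19134, and 20332 CPM. Single markers of the list moved in both directions, since Pdgfra fell from 1543 CPM in SASCs to 278 and 235 CPM in PASCs and EASCs, and Itgb1 and Eng rose in EASCs, to 2951 and 204 CPM from 1046 and 60.0 CPM. Markers of other cell types also differed between the groups. The smooth muscle list summed to 159 to 170 CPM for SASCs, 2829 to 3126 for PASCs, and 6317 to 6685 for EASCs, and the mesothelial list to 20.0 to 21.4, 98.3 to 106, and 132 to 143 CPM. Leukocyte markers gave 46.4 to 51.0, 114 to 118, and 164 to 173 CPM in the same order, with Cd3e at 0 in all samples. Adipocyte markers gave 87.1 to 95.9, 19.1 to 20.2, and 9.24 to 10.1 CPM, and endothelial markers 41.8 to 44.3, 11.5 to 14.4, and 29.4 to 32.4 CPM. Within the endothelial list Tek was higher in both visceral groups (2.55, 8.30, and 8.08 CPM), Kdr was lower in both (18.1, 1.67, and 3.75 CPM), and Cdh5 was lower in PASCs (9.20, 1.13, and 9.77 CPM). Of the melanocyte markers, Mitf was at 39.6, 5.61, and 2.71 CPM in the same order and was lower in both visceral groups, while Pmel was at most 3.95 CPM in its group means. Epithelial markers summed to at most 2.28 CPM. Above the floor of 3 counts in at least 1 sample of a group were all 5 smooth muscle and all 6 endothelial markers, 6 of 8 mesothelial markers in SASCs and 7 of 8 in the visceral groups, 5 of the 6 leukocyte markers found, 4 or 5 of 5 adipocyte markers, and at most 2 of 4 epithelial markers. In PASCs, Cldn5 (4, 0, and 0 counts), Lep (0, 6, and 0), and Cdh1 (6, 0, and 0) were above it in 1 sample only. At 0 were Krt18 and Krt14 in SASCs, Krt19 in PASCs, Krt5 in both visceral groups, and Cdh1 in EASCs. The part of these lists in the results below was not tested, and in bulk RNA fewer cells that make a transcript and less transcript per cell cannot be told apart.

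Fgf7 and Fgf10 were highest in SASCs, Fgf18 was highest in EASCs, and Fgf1 and Fgfr3 were higher in both visceral groups than in SASCs. Fgf2 and Fgfr2 stood apart in EASCs. Fgfr1, the most abundant receptor, showed no call in any comparison, and Fgf9 and Fgf21 were at or near 0 in all groups.

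To show the start regions of the 2 ligands that were lower outside SASCs, and of Fgf18 and Fgfr3, a ligand and a receptor that were higher there, the 250 bases before the start of each gene are given 5′ to 3′ on the strand of the gene, from RefSeq on GRCr8. Of the 10 members, 9 were matched by symbol in that set. The positions are chr3:133735377-133735626 on the plus strand for Fgf7, chr2:52533689-52533938 on the plus strand for Fgf10, chr10:18240883-18241132 on the minus strand for Fgf18, and chr14:81227210-81227459 on the minus strand for Fgfr3. Capitals mark matches to the TATA box, the CCAAT box, or the GC box, all of which lay on the opposite strand and so appear as reverse complements.
Fgf7: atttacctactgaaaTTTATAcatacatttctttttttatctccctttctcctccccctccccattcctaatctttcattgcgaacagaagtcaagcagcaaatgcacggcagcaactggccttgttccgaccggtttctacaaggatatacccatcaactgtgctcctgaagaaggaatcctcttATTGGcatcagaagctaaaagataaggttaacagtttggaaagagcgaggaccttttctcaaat
Fgf10: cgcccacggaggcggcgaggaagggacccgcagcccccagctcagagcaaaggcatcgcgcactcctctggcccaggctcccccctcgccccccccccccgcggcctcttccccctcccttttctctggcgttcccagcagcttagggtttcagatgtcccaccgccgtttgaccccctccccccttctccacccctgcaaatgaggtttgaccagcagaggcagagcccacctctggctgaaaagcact
Fgf18: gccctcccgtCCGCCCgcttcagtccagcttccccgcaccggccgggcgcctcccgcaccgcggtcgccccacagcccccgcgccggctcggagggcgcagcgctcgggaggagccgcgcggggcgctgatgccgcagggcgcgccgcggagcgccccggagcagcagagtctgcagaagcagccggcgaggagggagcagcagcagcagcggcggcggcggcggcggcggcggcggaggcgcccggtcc
Fgfr3: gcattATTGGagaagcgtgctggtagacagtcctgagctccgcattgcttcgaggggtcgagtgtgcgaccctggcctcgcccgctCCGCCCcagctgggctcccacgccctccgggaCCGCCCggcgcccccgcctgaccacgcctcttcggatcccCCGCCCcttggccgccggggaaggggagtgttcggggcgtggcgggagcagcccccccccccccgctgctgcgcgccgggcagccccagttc
The Fgf7 region had a GC content of 41.6%, below the median of 51.2% over 33469 rat promoters of this length, while those of Fgf10 (67.2%), Fgfr3 (74.4%), and Fgf18 (82%) were above it. Both strands were searched for the TATA box TATAAA (found in 12.9% of all promoters), the CCAAT box CCAAT (34.0%), the GC box GGGCGG (30.5%), the AP-1 site TGANTCA (6.34%), and the forkhead site TGTTTAC (3.21%). Fgf7 held TATAAA at 235 to 230 bases and CCAAT at 64 to 60 bases before the start. Fgf18 held 1 GGGCGG at 240 to 235 bases. Fgfr3 held CCAAT at 245 to 241 bases and GGGCGG at 164 to 159, 132 to 127, and 92 to 87 bases. No match to these letters was found in the Fgf10 window, and Fgf7 and Fgf10 shared none of the motifs searched.

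Fgf7 and Fgf10 belong to one subfamily of mesenchymal ligands that signal to epithelium. Fgf7, keratinocyte growth factor, lies on chromosome 3 from 118315856 to 118368464 on rn6. It had 11819, 9565, and 9040 counts in SASCs (411, 406, and 441 CPM), 4471, 5166, and 4114 counts in PASCs (171, 193, and 218 CPM), and 2444, 2540, and 2234 counts in EASCs (102, 103, and 99.9 CPM). The 3 groups did not overlap, and every PASCs sample lay between the SASCs and the EASCs samples. The means were 419 CPM ± 19.1 (SD, n = 3), 194 CPM ± 23.4, and 102 CPM ± 1.59. Fgf7 was thus 4.12-fold lower in EASCs than in SASCs (log2 fold change -2.04 ± 0.0680 SE, adjusted p = 4.15e-20) and 2.16-fold lower in PASCs (-1.11 ± 0.0656, adjusted p = 1.75e-14). Between EASCs and PASCs the log2 fold change was -0.93 ± 0.0670 (adjusted p = 9.14e-12), short of a 2-fold change, and it was -1.01 without PASCs replicate 1. The gene Fam227b lies across Fgf7 on the opposite strand, with 59 to 217 counts and 7.21, 4.96, and 2.96 CPM in SASCs, PASCs, and EASCs, and reads of the pair cannot be told apart if strand was not used.

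Fgf10, at 51673480 to 51747533 on chromosome 2, followed another order. Its counts were 1445, 1190, and 994 in SASCs (50.2, 50.5, and 48.5 CPM), 207, 194, and 149 in PASCs (7.92, 7.25, and 7.89 CPM), and 274, 267, and 259 in EASCs (11.5, 10.8, and 11.6 CPM). The SASCs samples were far above the other 6, and here the PASCs samples were the lowest. Group means were 49.8 CPM ± 1.08, 7.69 CPM ± 0.377, and 11.3 CPM ± 0.412 (SD, n = 3). Fgf10 was 6.48-fold lower in PASCs than in SASCs (log2 fold change -2.70 ± 0.0866, adjusted p = 2.04e-20) and 4.41-fold lower in EASCs (-2.14 ± 0.0825, adjusted p = 1.19e-18). EASCs were above PASCs by a log2 fold change of 0.56 ± 0.0953 (adjusted p = 3.99e-05), less than 2-fold. The balance of the pair therefore differed by depot. There were 8.18, 8.04, and 9.09 Fgf7 counts for each Fgf10 count in the SASCs samples, 21.6, 26.6, and 27.6 in the PASCs samples, and 8.92, 9.51, and 8.63 in the EASCs samples. PASCs alone stood apart in this ratio, and the SASCs and EASCs samples overlapped.

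Fgf18, a ligand known from cartilage, bone, and lung development, showed the widest difference of the 10 genes. It lies on chromosome 10 from 18047109 to 18082290. The counts were 8, 14, and 10 in SASCs (0.278, 0.594, and 0.488 CPM), 40, 46, and 31 in PASCs (1.53, 1.72, and 1.64 CPM), and 194, 200, and 203 in EASCs (8.12, 8.11, and 9.08 CPM). No groups overlapped, and the order was SASCs, PASCs, and EASCs from low to high. Means were 0.454 CPM ± 0.161, 1.63 CPM ± 0.0952, and 8.44 CPM ± 0.558 (SD, n = 3). EASCs were 18.9-fold above SASCs (log2 fold change 4.24 ± 0.245, adjusted p = 1.10e-14) and 5.16-fold above PASCs (2.37 ± 0.199, adjusted p = 2.10e-10), and PASCs were 3.66-fold above SASCs (1.87 ± 0.294, adjusted p = 2.94e-06). The SASCs values rest on few counts, so the fold against SASCs is less precise than that against PASCs. Fgf18 shares 1342 bases with Npm1 on the same strand, and Npm1 had 327, 377, and 326 CPM in SASCs, PASCs, and EASCs.

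**Figure D1:**
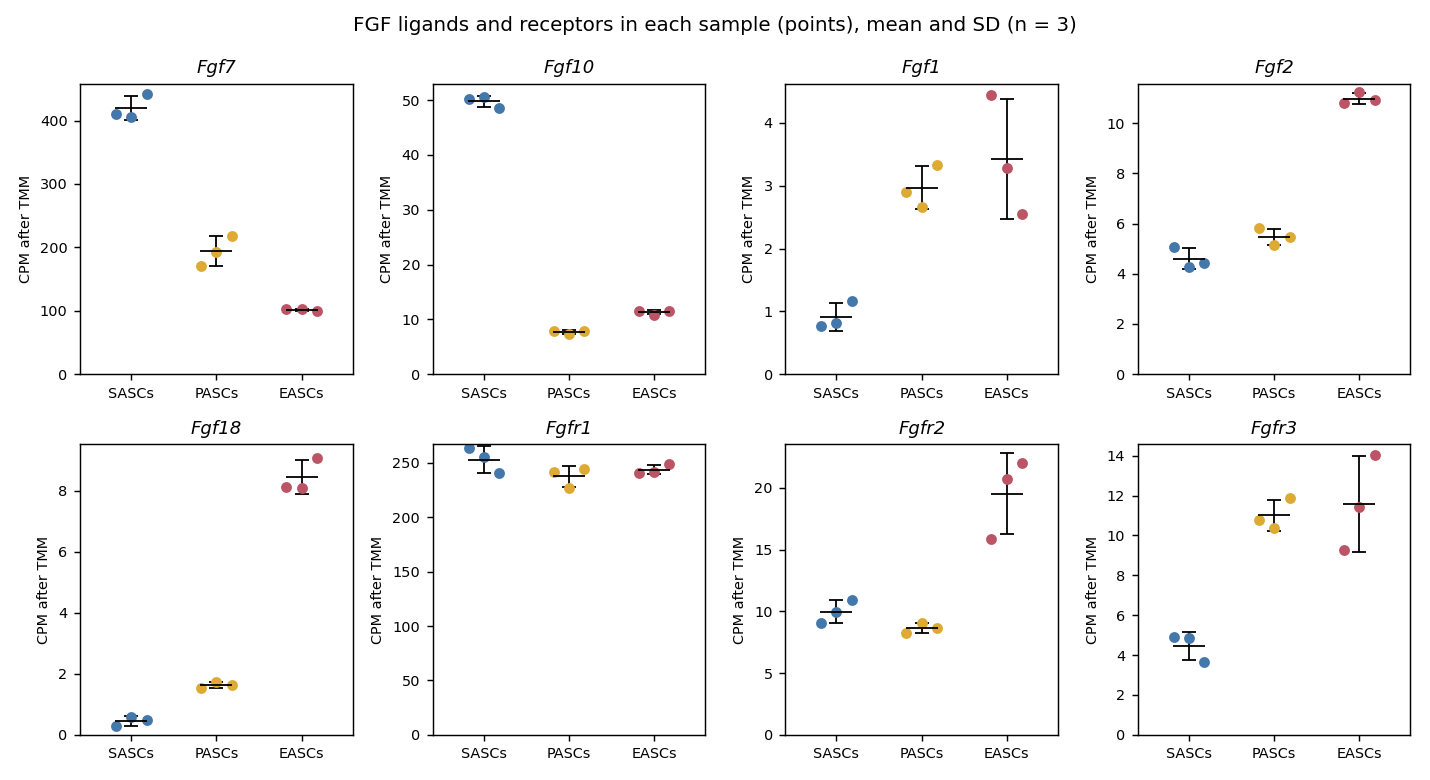
CPM after TMM scaling (linear axes from 0) of the 8 members that passed the filter on low counts, with 1 panel for each gene and 3 groups on the horizontal axis. Points are samples and bars are the mean ± SD (n = 3). Fgf7 and Fgf10 are highest in SASCs, Fgf18 reaches 8.11 to 9.08 CPM in EASCs, and the 9 Fgfr1 samples lie close together.

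Fgf1, acidic FGF, was low in every group. The SASCs samples held 22, 19, and 24 counts (0.765, 0.806, and 1.17 CPM), the PASCs samples 76, 71, and 63 (2.91, 2.65, and 3.34 CPM), and the EASCs samples 106, 81, and 57 (4.44, 3.28, and 2.55 CPM). All 6 visceral samples were above the SASCs samples, while PASCs and EASCs overlapped. EASCs were 3.79-fold above SASCs (log2 fold change 1.92 ± 0.274, adjusted p = 6.36e-07) and PASCs 3.26-fold (1.71 ± 0.278, adjusted p = 5.00e-06). No difference between EASCs and PASCs was detectable (0.22, 95% interval -0.27 to 0.70, adjusted p = 0.538), and its sign turned (-0.01) without EASCs replicate 1. Fgf1 lies on chromosome 18 from 32273788 to 32359831, and the table places Nr3c1 and Arhgap26 across the whole of it on the opposite strand. RefSeq on GRCr8 has Fgf1 on the minus strand, where the table has plus, so the strand of this overlap is not settled. Nr3c1, the glucocorticoid receptor, was at 207, 82.9, and 82.8 CPM in SASCs, PASCs, and EASCs, and Arhgap26 at 4.41, 5.23, and 7.63 CPM. Whether strand was used in counting is not given in the sources used here, so the part of reads from either gene in the Fgf1 counts cannot be told apart.

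Fgf2, basic FGF, was raised in EASCs. Its counts were 146, 101, and 91 in SASCs (5.08, 4.29, and 4.44 CPM), 152, 138, and 103 in PASCs (5.81, 5.16, and 5.45 CPM), and 258, 277, and 244 in EASCs (10.8, 11.2, and 10.9 CPM). The EASCs samples were close to each other and above the other 6. Fgf2, on chromosome 2 from 124081072 to 124134133, was 2.38-fold higher in EASCs than in SASCs (log2 fold change 1.25 ± 0.132, adjusted p = 3.39e-09), and with total counts in place of TMM the log2 fold change was 0.86, under the threshold. Against PASCs it was 2.00-fold higher (1.00 ± 0.130, adjusted p = 5.95e-07). That value sits at the fold threshold, and the log2 fold change was 0.96 without PASCs replicate 2, 0.99 without EASCs replicate 2, and 0.93 with total counts. PASCs and SASCs did not overlap, but the difference was not significant (0.24, 95% interval -0.04 to 0.53, adjusted p = 0.124).

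Fgf9 and Fgf21 did not pass the filter on low counts and were not tested. Fgf9, on chromosome 15 from 38341657 to 38386945, had 3, 2, and 0 counts for SASCs, 1, 0, and 0 for PASCs, and 0, 1, and 1 for EASCs. Fgf21, a hormone best known from liver that needs the co-receptor beta-Klotho, lies on chromosome 1 from 101595579 to 101596822, and it had 0 counts in the SASCs and PASCs samples and 0, 2, and 2 in EASCs. All of these values are at or under 3 counts per library, so no difference was detectable at this depth, and no fold is given.

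Fgfr1, the receptor most often found in mesenchymal cells, was expressed at similar levels. The samples had 7591, 6007, and 4920 counts in SASCs (264, 255, and 240 CPM), 6325, 6065, and 4608 in PASCs (242, 227, and 244 CPM), and 5745, 5966, and 5557 in EASCs (241, 242, and 249 CPM). The 3 groups overlapped throughout. The log2 fold change was -0.05 for EASCs against SASCs (95% interval -0.17 to 0.06, adjusted p = 0.370), -0.09 for PASCs against SASCs (-0.20 to 0.02, adjusted p = 0.134), and 0.04 for EASCs against PASCs (-0.07 to 0.15, adjusted p = 0.660). Changes of 2-fold in Fgfr1, on chromosome 16 from 71265390 to 71319046, lie outside all 3 intervals. These intervals depend on the TMM scaling: with total counts alone the value against SASCs was -0.45 in EASCs and -0.41 in PASCs, while the median of all genes was -0.39 and -0.33.

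Fgfr2, on chromosome 1 from 200590951 to 200696929, differed in EASCs. The counts were 261, 235, and 223 in SASCs (9.07, 9.98, and 10.9 CPM), 215, 242, and 164 in PASCs (8.22, 9.05, and 8.68 CPM), and 379, 511, and 493 in EASCs (15.9, 20.7, and 22.1 CPM). All EASCs samples were above the other 6, and EASCs replicate 1 was the lowest of them. EASCs were 2.26-fold above PASCs (log2 fold change 1.17 ± 0.120, adjusted p = 8.50e-09) and 1.97-fold above SASCs (0.97 ± 0.118, adjusted p = 3.76e-08), the latter just short of the fold threshold. Leaving out 1 replicate moved the latter log2 fold change between 0.88 and 1.11, and it passed the threshold without SASCs replicate 3 (1.04) or EASCs replicate 1 (1.11). With total counts in place of TMM it was 0.57. PASCs and SASCs were not called (-0.20, 95% interval -0.46 to 0.06, adjusted p = 0.160). Counts per gene do not separate the b form of Fgfr2, which binds Fgf7 and Fgf10, from the c form.

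Fgfr3, on chromosome 14 from 82272319 to 82287744, separated SASCs from the visceral groups. Its counts were 141, 114, and 75 in SASCs (4.90, 4.84, and 3.66 CPM), 281, 278, and 224 in PASCs (10.7, 10.4, and 11.9 CPM), and 221, 282, and 314 in EASCs (9.25, 11.4, and 14.05 CPM). Every SASCs sample was below the other 6, and PASCs and EASCs overlapped. Fgfr3 was 2.57-fold higher in EASCs (log2 fold change 1.36 ± 0.150, adjusted p = 7.48e-09) and 2.43-fold higher in PASCs (1.28 ± 0.151, adjusted p = 2.31e-08). With total counts in place of TMM these log2 fold changes were 0.95 and 0.97, under the fold threshold. EASCs and PASCs differed by 0.08 (95% interval -0.21 to 0.36, adjusted p = 0.730), and by -0.08 without EASCs replicate 3.

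In EASCs against SASCs, 6 of the 10 members passed both thresholds of edgeR's quasi-likelihood test, more than a 2-fold change with an adjusted p-value under 0.05. Of these, 4 were higher and 2 lower, and 8 members had been tested. Over all genes tested, 27.8% were called in that comparison, 13.6% higher and 14.2% lower. In PASCs against SASCs 5 members were called, 3 higher and 2 lower, where 26.9% of all genes were, 12.0% higher and 14.9% lower. In EASCs against PASCs 3 members were called, all higher in EASCs, where 7.39% of all genes were, 5.19% higher and 2.20% lower. At an adjusted p-value under 0.05 with no fold threshold the members called numbered 7, 5, and 5, and the share of all genes was 69.7%, 69.2%, and 30.7%. The groups did not overlap for 7, 7, and 5 members, against 72.1%, 71.6%, and 41.2% of all genes. The median log2 fold change of the tested members was 1.11, 0.08, and 0.39, and that of all genes 0.01, -0.01, and -0.01. Since the members were chosen with earlier results of these data known, their counts beside these shares are a description only. The comparisons of EASCs and PASCs with SASCs share the SASCs samples, and a permutation test of 3 against 3 samples for a single gene cannot go below 0.1.

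**Figure D2:**
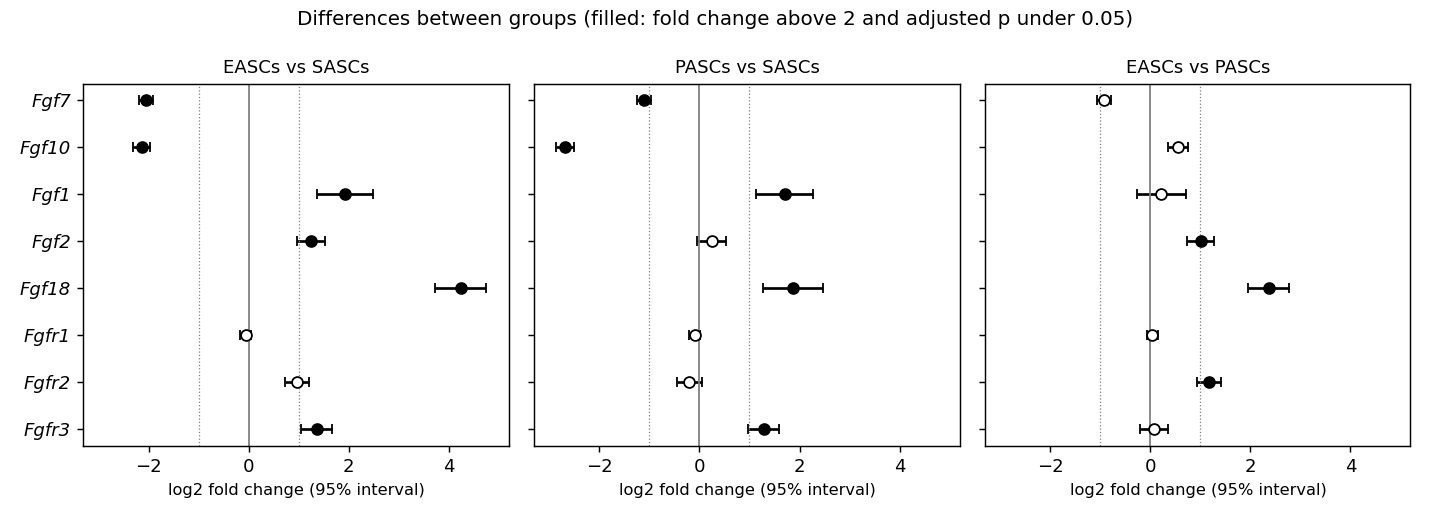
Log2 fold changes (horizontal axes, 95% interval) of the 8 tested members in EASCs against SASCs, PASCs against SASCs, and EASCs against PASCs. Filled points passed both thresholds (more than 2-fold, adjusted p under 0.05), and dotted lines mark a 2-fold change. Fgf18 reaches 4.24 on the left, and Fgfr1 stays near 0 in all 3 panels.

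Levels of different genes were compared per kilobase of the length listed in the table. For SASCs the 5 tested member ligands ranked Fgf7 (116 CPM per kb ± 5.30, SD, n = 3), Fgf10 (76.8 ± 1.66), Fgf2 (4.53 ± 0.411), Fgf18 (0.786 ± 0.279), and Fgf1 (0.143 ± 0.0350), and no neighbours overlapped. The order in PASCs was the same, with 53.8 CPM per kb ± 6.50 for Fgf7, 11.9 ± 0.581 for Fgf10, 5.39 ± 0.323 for Fgf2, 2.83 ± 0.165 for Fgf18, and 0.464 ± 0.0540 for Fgf1. In EASCs Fgf18 (14.6 CPM per kb ± 0.967) stood above Fgf2 (10.8 ± 0.217), below Fgf7 (28.2 ± 0.442) and Fgf10 (17.4 ± 0.635), while Fgf1 (0.536 ± 0.149) was again the lowest of the 5. Outside the members, Fgf23 was at 6.89 CPM per kb in SASCs, and Fgf22 at 1.92, 3.78, and 3.85 CPM per kb in SASCs, PASCs, and EASCs. The 7 member ligands together summed to 199 CPM per kb ± 3.56 for SASCs, 74.4 ± 6.48 for PASCs, and 71.7 ± 0.839 for EASCs. Fgf7 made up 58.5%, 72.2%, and 39.4% of that sum in SASCs, PASCs, and EASCs, Fgf10 38.7%, 16.0%, and 24.3%, Fgf2 2.28%, 7.29%, and 15.1%, and Fgf18 0.396%, 3.81%, and 20.4%. The mixture in SASCs was thus almost all Fgf7 and Fgf10, and in EASCs 4 ligands each held a sizeable part. The length listed for Fgf10, 648 bases, is a multiple of 3, as a coding length would be, and that of Fgf18 is 577 bases, so their levels per kb against Fgf7 (3605 bases) depend on how much of each transcript is listed. The differences between groups within a gene do not depend on the length.

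Among the 3 member receptors, Fgfr1 held 96.7% of the summed level per kb in SASCs, 94.5% in PASCs, and 92.6% in EASCs. Its level was 67.0, 62.9, and 64.5 CPM per kb, while Fgfr2 and Fgfr3 were below 3 CPM per kb in their group means. Fgfrl1, which is no member, was at 13.6, 11.3, and 9.11 CPM per kb in SASCs, PASCs, and EASCs. The order of Fgfr2 and Fgfr3 per kb changed by depot, and it depends on their listed lengths of 7779 and 4379 bases. Fgfr2 was above Fgfr3 in SASCs (1.28 ± 0.116 and 1.02 ± 0.160 CPM per kb, SD, n = 3) and below it in PASCs (1.11 ± 0.0530 and 2.51 ± 0.175), and in EASCs they overlapped (2.51 ± 0.418 and 2.64 ± 0.548).

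**Figure D3:**
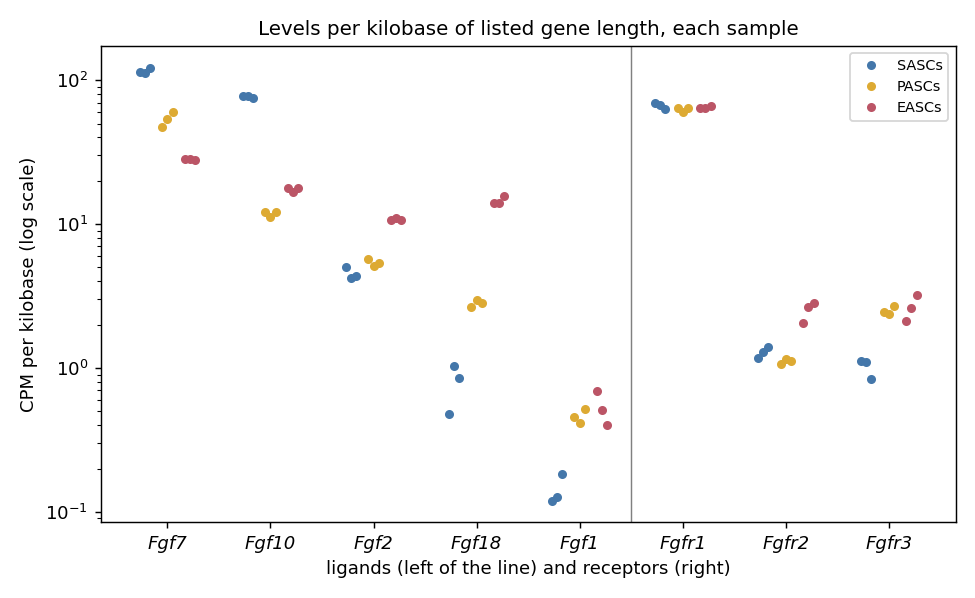
CPM per kilobase of listed gene length (log axis) in each sample for 5 ligands, left of the line, and 3 receptors, right of it. Points are samples, coloured by group. Fgf7, Fgf10, and Fgfr1 lead in SASCs, and in EASCs Fgf18 and Fgf2 come near Fgf10.

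The rest of the pathway was read from lists that hold 73 genes, of which 72 were found and 55 tested. In EASCs against SASCs 10 were called, 5 higher and 5 lower, in PASCs against SASCs 11, 3 higher and 8 lower, and in EASCs against PASCs 5, 4 higher and 1 lower. As shares of the tested genes these are 18.2%, 20%, and 9.09%, against 27.8%, 26.9%, and 7.39% of all genes. Fgf23, Klb, and Hs3st1, among the lower genes in both comparisons with SASCs, needed the SASCs samples to pass the filter on low counts as applied. Their calls against SASCs therefore follow from the filter. The median log2 fold change of the lists was -0.13, -0.21, and 0.09. The calls below of Fgf22, of Map2k1 in EASCs, and of Dusp4 and Sulf2 in PASCs lay close to the 2-fold threshold. With total counts in place of TMM the median of all genes was -0.39 in EASCs and -0.33 in PASCs against SASCs. That shift is larger than these margins, and the values of these genes under that scaling are not given here.

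Of the 16 other ligands and homologous factors, 15 were found and 2 tested. Fgf23, a hormone of bone that lowers phosphate and acts with alpha-Klotho, had 154, 127, and 100 counts in SASCs (5.35, 5.39, and 4.88 CPM) and 0 counts in all 6 PASCs and EASCs samples. With a floor of 3 counts per library, it was at least 40.5-fold higher in SASCs than in PASCs and at least 41.0-fold higher than in EASCs. Fgf22, of the same subfamily as Fgf7 and Fgf10, went the other way, with 15, 23, and 27 counts for SASCs, 54, 45, and 34 for PASCs, and 32, 50, and 51 for EASCs. EASCs exceeded SASCs by a log2 fold change of 1.04 ± 0.332 (adjusted p = 0.00732), and PASCs did so by 1.02 ± 0.333 (adjusted p = 0.00859). Fgf3, Fgf4, Fgf6, Fgf8, Fgf14, Fgf19, and Fgf20 were at 0 counts in all samples. Fgf11 had 12, 8, and 4 counts for SASCs, 0 for PASCs, and 8, 4, and 6 for EASCs, and Fgf12 had 0 for SASCs, 4, 4, and 2 for PASCs, and 4, 5, and 3 for EASCs.

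The co-receptor Klb, beta-Klotho, was low and higher in SASCs, with 15, 16, and 17 counts against 0, 1, and 4 in PASCs and 4, 4, and 2 in EASCs. Both visceral groups lay near the floor of 3 counts per library, so no fold is given. Alpha-Klotho (Kl) and Fgfr4 did not pass the filter, and Fgfr4 had 0, 0, and 4 counts for SASCs, 1, 0, and 2 for PASCs, and 3, 14, and 9 for EASCs. Fgfrl1, a receptor without a kinase domain, was at 31.9, 26.6, and 21.4 CPM in SASCs, PASCs, and EASCs. Its differences from SASCs were under 2-fold, at -0.27 on the log2 scale for PASCs (adjusted p = 0.00473) and -0.58 for EASCs (adjusted p = 5.73e-07).

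Heparan sulfate enzymes set the sulfate pattern on which FGF binding depends. Of 13 listed genes for these enzymes and for FGF binding proteins, 11 were tested, and 2 were called in EASCs against SASCs and 3 in PASCs against SASCs, where 27.8% and 26.9% of all genes were. Hs3st1, a heparan sulfate sulfotransferase, had 133, 127, and 89 counts for SASCs, 7, 11, and 7 for PASCs, and 39, 25, and 11 for EASCs. It was 13.6-fold lower in PASCs (log2 fold change -3.76 ± 0.346, adjusted p = 2.21e-10) and 4.53-fold lower in EASCs (-2.18 ± 0.290, adjusted p = 2.05e-07). Too few visceral samples reached the level of the filter on low counts for Hs3st1 to pass without SASCs, so these calls follow from the filter. The extracellular sulfatases Sulf1 and Sulf2, which remove sulfate from heparan sulfate, fell in PASCs, Sulf1 from 720 to 246 CPM (-1.55, adjusted p = 1.34e-19) and Sulf2 from 63.1 to 30.7 CPM (-1.04, adjusted p = 2.64e-12). In EASCs their differences from SASCs were under 2-fold, at 485 CPM for Sulf1 (-0.57, adjusted p = 2.35e-10) and 32.6 CPM for Sulf2 (-0.95, adjusted p = 1.47e-11). Ext1, a polymerase of the heparan sulfate chain, rose in EASCs from 61.8 to 142 CPM (1.20, adjusted p = 4.83e-17). The other tested genes of this list were not called against SASCs.

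Below the receptors, 2 of the 22 adaptors and kinases were called in EASCs against SASCs, where 27.8% of all genes were, and 1 in PASCs against SASCs, where 26.9% were. At an adjusted p-value under 0.05 with smaller folds included, 19 and 17 of the 22 passed, against 69.7% and 69.2% of all genes. Pik3r1, a regulatory subunit of phosphoinositide 3-kinase, was at 115 CPM in SASCs and fell to 28.0 CPM in PASCs (log2 fold change -2.04, adjusted p = 3.03e-19) and to 30.0 CPM in EASCs (-1.93, adjusted p = 8.22e-19). Map2k1, the kinase directly above ERK, rose 2.03-fold in EASCs (adjusted p = 3.58e-14), and its 1.91-fold difference in PASCs was under the threshold.

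Among the 12 feedback inhibitors, 1 rose and 1 fell past both thresholds in each comparison with SASCs (27.8% and 26.9% of all genes were called), and 7 and 10 passed the adjusted p-value alone (69.7% and 69.2% of all genes). Dusp4, a phosphatase of ERK, had 62, 94, and 38 counts for SASCs, 160, 139, and 89 for PASCs, and 405, 478, and 476 for EASCs. It was 7.18-fold higher in EASCs (log2 fold change 2.84 ± 0.177, adjusted p = 5.76e-14) and 2.01-fold higher in PASCs (1.01 ± 0.197, adjusted p = 5.96e-05). The PASCs value sits at the fold threshold. Dusp5, also an ERK phosphatase, was at 21.0 CPM in SASCs and fell to 7.59 CPM in PASCs (-1.47, adjusted p = 9.70e-12) and to 5.51 CPM in EASCs (-1.93, adjusted p = 6.52e-14). Of the 6 ETS targets and FLRT modulators, 1 was called higher in EASCs, and 1 higher and 1 lower in PASCs, against SASCs. Over all genes tested, 27.8% and 26.9% were called in these comparisons. Etv4 is a transcription factor induced by FGF signals in many tissues. It had 68, 62, and 54 counts for SASCs, 179, 186, and 99 for PASCs, and 448, 440, and 431 for EASCs. Etv4 was 7.34-fold higher in EASCs (2.88 ± 0.137, adjusted p = 1.60e-16) and 2.53-fold higher in PASCs (1.34 ± 0.150, adjusted p = 9.58e-09). Etv1, of the same subfamily, fell in PASCs from 3.54 to 1.24 CPM (-1.55, adjusted p = 1.14e-05). In EASCs Etv1 was at 2.24 CPM and was not called.

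Between EASCs and PASCs the 5 genes called were Dusp4 (log2 fold change 1.84), Etv4 (1.54), Hs3st1 (1.58), and Flrt2 (1.07), all higher in EASCs, and Spry3 (-1.84), which was lower. Flrt2 and Spry3 were named after their values were seen.

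**Figure D4:**
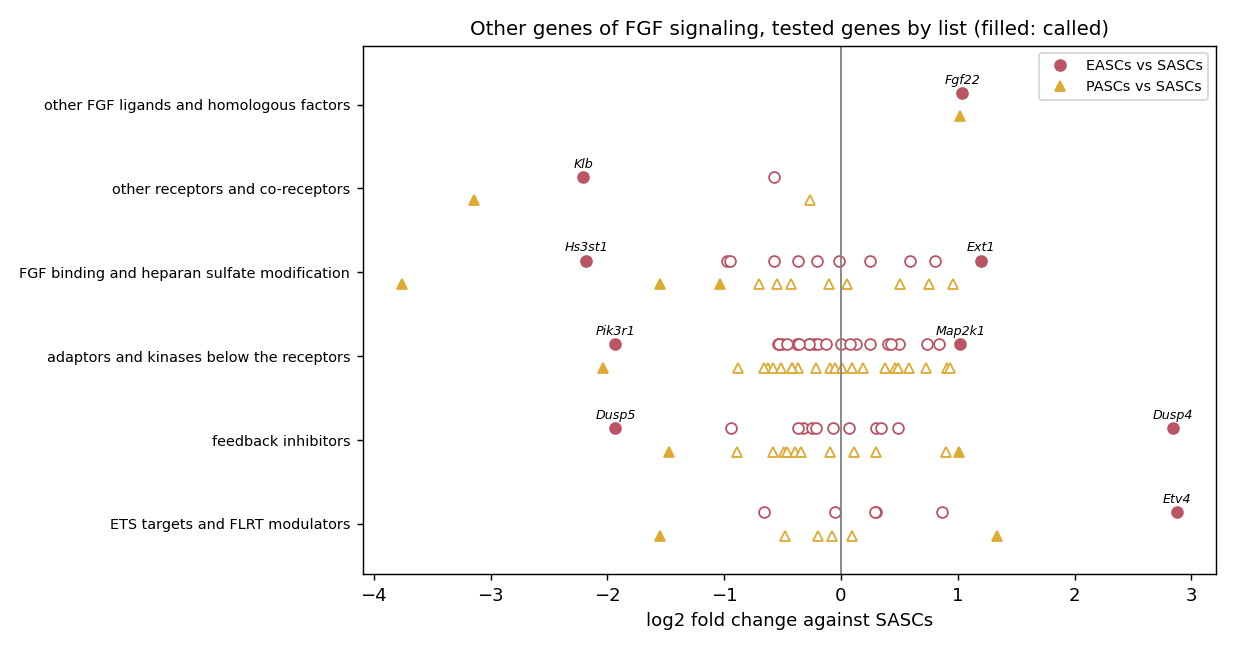
Log2 fold changes against SASCs (horizontal axis) of the tested pathway genes that are not members, by list, with circles for EASCs and triangles for PASCs. Filled symbols passed both thresholds (more than 2-fold, adjusted p under 0.05). Dusp4 and Etv4 lie farthest to the right, Klb rests on few counts, and Fgf23, at 0 counts in PASCs and EASCs, is not drawn.

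The genes most like 3 members in their pattern were found by Pearson's correlation of log2 CPM over the 9 samples, among 12773 genes with a mean of at least 1 CPM. They are a description only, since the samples lie in 3 groups and share library and depth. Closest to Fgf18 were Ltbp4 (r = 0.997, at 4.02, 6.71, and 21.7 CPM in SASCs, PASCs, and EASCs), Sqrdl (r = 0.997), and Eng (r = 0.996). Closest to Fgf10 were Scpep1, Cemip, and Adm, and Cemip was at 1496, 9.46, and 26.3 CPM. Closest to Fgf7 were Ebf3 (r = 0.998, at 139, 29.1, and 8.72 CPM), Hpgd (r = 0.998), and Prg4 (r = 0.996).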

How the data were processed

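The authors trimmed paired-end reads of 150 bp with cutadapt 3.1 and FastX-Toolkit 0.0.13, aligned them to the rat genome with TopHat 2.1.1 (2 mismatches), and deposited raw counts for 35362 genes in the 9 samples. The paper names rn6 and the submitters' processing notes name rn5 and TopHat2, and the positions in the table are those of rn6. The counting tool and its use of strand are not given in the sources used here. The study called DEGs with DEGseq. In its place, edgeR 4.0.16 in R 4.3.3 was used, because it estimates the spread between replicates. Counts were scaled by TMM (factors 0.740 to 1.23) and filtered with filterByExpr, which left 14770 genes, and all 9 samples entered 1 quasi-likelihood fit without a block. Genes with a fold change above 2 and a Benjamini-Hochberg adjusted p-value under 0.05 were called, the study's thresholds. The SE of a log2 fold change was derived from its F statistic. The common biological coefficient of variation was 0.0685.

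Groups and replicate numbers were taken from the labels, and the methods describe 6 wells in each group. Members, gene lists, and tests were chosen with earlier results of these data known. Named were all members, up to 5 called genes of each list with the largest change against SASCs, genes overlapping a member, and the 3 genes closest in pattern to each of the 3 members with the widest span. Untested pathway genes, Fgfrl1, Flrt2, Spry3, and the single marker genes were named after their values were seen. On simulated counts for EASCs against SASCs with 14433 genes, 187 of 200 genes with a 3-fold change were recovered and 2 unchanged genes were called. Replicates of a group differed by more than counting noise (chi-square per degree of freedom 4.41 to 16.8). The floor of 3 counts covers counting error only. The alternatives were DESeq2 1.42.0, RLE factors, no TMM, removal of rRNA genes, other filters, the 2 groups compared alone, the replicate number as a block, no fold threshold, and leaving out each replicate. Metabolite data were not analysed here, and some marker genes are not reported here.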

Additional observations from a re-analysis of the deposited data

How the results depend on the processing

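Of the fold changes of the 8 tested members under the alternatives, 391 kept their direction and their side of the thresholds, 8 lost the call, 4 gained it, and 5 turned in sign. The last were all differences that had not been called: with total counts in place of TMM, Fgf2 in PASCs against SASCs was -0.0763, and Fgfr1 and Fgfr3 in EASCs against PASCs were -0.0380 and -0.0164, and leaving out 1 EASCs replicate gave -0.0137 for Fgf1 (range -0.0137 to 0.392) and -0.0792 for Fgfr3 (range -0.0792 to 0.214) in EASCs against PASCs. Without TMM the median of all genes was -0.39 in EASCs and -0.33 in PASCs against SASCs, the share of called genes that were higher fell from 48.8% to 28.3% and from 44.7% to 28.5%, and the members called were 2 higher and 2 lower in each. The calls lost there were Fgf2 (0.86) and Fgfr3 (0.95) in EASCs and Fgfr3 (0.97) in PASCs against SASCs, and Fgf2 (0.93) in EASCs against PASCs, and Fgf7 in EASCs against PASCs was called (-1.003). Fgf2 in EASCs against PASCs also lost its call with DESeq2 and with RLE factors, where it was just under a 2-fold change. Without a fold threshold, 10298, 10227, and 4530 genes were called in EASCs against SASCs, PASCs against SASCs, and EASCs against PASCs, with 43, 43, and 21 of the other pathway genes and 5 members in the last comparison. Leaving out each replicate gave 4115 to 4338, 3957 to 4133, and 1022 to 1108 genes, 6 to 7, 5, and 2 to 4 members, and 9 to 10, 9 to 13, and 4 to 8 other pathway genes, with 8 without PASCs replicate 3.

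The replicate numbers do not pair the samples, since samples of the same number correlated at -0.0252 to 0.0590 in their deviations and 4 of 9 correlated best with their own number. With the replicate block, 4061, 3944, and 1067 genes and 6, 5, and 3 members were called. Differences of a few counts, as in Fgf9 and Fgf21, cannot be resolved at this depth.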
